A study of Mus musculus with 6 samples.

Results

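The S100 genes described here encode small calcium-binding proteins. They were chosen by name, with earlier results of these data known. The 10 genes (the annotation names 18194 in all) were S100a1, S100a3, S100a4, S100a6, S100a8, S100a9, S100a10, S100a11, S100a13 and S100a14. Their probe sets, the groups of short oligonucleotides that together report 1 transcript, were taken from the array's platform annotation. A total of 12 of the 45101 probe sets carried 1 of these symbols alone, and they covered 9 of the 10 genes. S100a11 was represented only by 1 probe set that is also annotated to other loci, so no level is given for it. Total RNA of mouse hair follicle bulbs, taken at postnatal day 9 while the first coat is growing, was hybridised to 6 one-colour arrays in 3 groups of 2. The emN1 bulbs were from skin that lost Notch1 already during embryonic life and had none that functions. In anN1 bulbs the deletion was made in anagen, the growth phase of the follicle, and functional Notch1 was still present. Wild-type bulbs formed the last group, and the study treated both anN1 and wild-type as controls, 4 arrays in all. Replicates are labelled biological, yet no source says that the 2 of a group are different animals, and a p-value then reflects only how much these arrays vary, in part perhaps technically. No strain, Cre promoter or number of animals per sample was stated.

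S100 proteins are small EF-hand proteins, most of which form dimers. Calcium binding opens a surface with which they dock onto target proteins such as annexins, myosins and enzymes, and some are also released and act on cell-surface receptors. In skin most of their genes lie in and beside the epidermal differentiation complex, a dense gene cluster, and S100A3 is known as a protein of the hair cuticle, whereas S100A8 and S100A9 are known from neutrophils and from stressed epidermis. Notch1 is a cell-surface receptor whose cleaved intracellular part binds the DNA-binding protein RBPJ, and it takes part in the differentiation of the hair bulb.

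All 10 genes lie on chromosome 3 of the mouse assembly GRCm38.p6. In the order of the annotation, S100a1, S100a13 and S100a14 are followed by S100a3, S100a4, S100a6, S100a8 and S100a9, while S100a11 and S100a10 are direct neighbours of each other farther along. RefSeq promoter windows, which run from 250 bases before a start to 50 bases after it and hold 300 bases, were matched for 8 of the 10 genes (11 windows). The windows of the 3 members called higher in emN1 in at least 1 comparison (S100a4, S100a6 and S100a8), and of the S100a8 partner S100a9, are shown because neighbouring genes of the cluster had unlike patterns. They are given 5′ to 3′ on the strand of the gene, at chr3:90603520-90603819 for S100a4, chr3:90612644-90612943 for S100a6, chr3:90668821-90669120 for S100a8 (all on the plus strand) and chr3:90695672-90695971 for S100a9 (minus strand). Capitals mark the letters TGGGAA, the core that RBPJ binds, on either strand, so that TTCCCA is the same core read on the other strand.
S100a4: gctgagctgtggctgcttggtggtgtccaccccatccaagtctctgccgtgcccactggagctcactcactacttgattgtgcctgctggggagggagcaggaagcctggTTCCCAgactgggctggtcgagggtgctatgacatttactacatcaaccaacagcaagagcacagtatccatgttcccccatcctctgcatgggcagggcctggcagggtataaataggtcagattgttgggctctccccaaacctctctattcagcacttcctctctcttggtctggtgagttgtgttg
S100a6: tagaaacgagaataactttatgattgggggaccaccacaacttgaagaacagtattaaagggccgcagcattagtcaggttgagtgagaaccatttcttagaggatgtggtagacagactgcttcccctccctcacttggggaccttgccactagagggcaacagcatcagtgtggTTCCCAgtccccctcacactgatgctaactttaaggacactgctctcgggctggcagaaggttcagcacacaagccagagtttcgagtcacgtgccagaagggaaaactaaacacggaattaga
S100a8: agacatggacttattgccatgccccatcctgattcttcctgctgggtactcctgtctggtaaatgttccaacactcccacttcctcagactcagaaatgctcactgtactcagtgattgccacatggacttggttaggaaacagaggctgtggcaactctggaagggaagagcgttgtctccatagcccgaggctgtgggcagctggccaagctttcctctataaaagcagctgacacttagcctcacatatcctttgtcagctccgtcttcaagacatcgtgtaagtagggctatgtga
S100a9: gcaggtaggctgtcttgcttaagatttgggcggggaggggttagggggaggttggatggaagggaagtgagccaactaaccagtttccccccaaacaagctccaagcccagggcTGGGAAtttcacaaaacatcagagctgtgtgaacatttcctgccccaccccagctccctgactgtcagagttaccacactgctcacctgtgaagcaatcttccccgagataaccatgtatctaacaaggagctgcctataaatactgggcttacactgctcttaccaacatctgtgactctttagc

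The core TGGGAA, searched on both strands, was found in windows of 4 of the 8 genes, namely S100a3, S100a4, S100a6 and S100a9, and in 28.3% of the 27025 genes with a window. By window it was found in 4 of 11, against 25.6% of all 32851. The AP-1 letters TGANTCA, which read the same on both strands, were found in 1 of the 8 genes (S100a11) and in 8.97% of all genes. The TATA letters TATAAA, also searched on both strands, were found in 4 of the 8 genes (S100a3, S100a4, S100a8 and S100a9) and in 15.7% of all genes. By window they were found in 4 of 11, against 13.6% of all windows. S100a3 has several windows, and its TGGGAA and TATAAA lay in different ones. No match of one motif can share letters with a match of another. S100a8 held no TGGGAA and S100a4 held 1, so the members with changed signals were not alike in these letters. The windows of S100a1 and S100a13, which are transcribed in opposite directions, share 204 bases. These matches describe letters alone and say nothing on whether a factor was bound.

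The deposited signals were on a common scale, with array medians of 220 to 262 units. Signals below 111.8 units, the 95th percentile of 20 undetected bacterial controls, are called under background here, and 64.6% to 68.1% of probe sets lay above this limit on each array. Notch1 gave 6498 and 6292 units in emN1, 15077 and 12527 in anN1, and 23750 and 34070 in wild-type arrays. A Cre control probe set gave 434 and 409 units in emN1, 395 and 515 in anN1, and 62.4 and 79.0 in wild-type arrays. Replicate 1 of emN1 and of anN1 were hybridised as a first array set and the other 4 arrays as a second one. The ratio of 3′ to 5′ actin signal, a sign of RNA length, was 4.59 and 5.64 in the first set against 2.39 to 2.71 in the second. The same ratio for GAPDH did not separate the sets, at 4.79 in emN1 and 6.96 in anN1 of the first and 4.64 to 5.45 in the second. All 9 bulb markers examined were above background on every array, and 3 of the 9 (Krt5, Krt14 and Shh) were higher in emN1 than in controls, a count that was 0 without emN1 replicate 2, 1 without emN1 replicate 1 or anN1 replicate 1, and 2 without any 1 of the other arrays. Edar and Lef1 of the same list had both emN1 arrays below all 4 controls, at log2 differences of -0.98 and -0.48 that did not pass. In bulk samples, fewer cells of a type and less RNA per cell cannot be told apart.

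S100 transcripts did not move as a block in emN1 bulbs. S100a4 was several-fold higher in emN1 than in either control and S100a6 was modestly higher than in the controls together, whereas 1 of 2 S100a1 probe sets was lower than in anN1. S100a8 was higher in emN1 than in wild-type, and its anN1 arrays were as bright as the emN1 arrays. Of the 12 probe sets, 11 passed the filter on dim probe sets, and S100a9 did not. Against the 4 controls, 2 of these 11 rose, 0 fell and 9 did not pass limma with Benjamini-Hochberg adjustment at 0.05, where 3.77% of all 27022 tested probe sets passed (2.41% higher, 1.37% lower). At an unadjusted p under 0.05 there were 4, and the share of all tested probe sets at this limit was not counted. The median difference of the 11 was 0.11 on the log2 scale, against -0.01 over all tested probe sets.

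**Figure D1:**
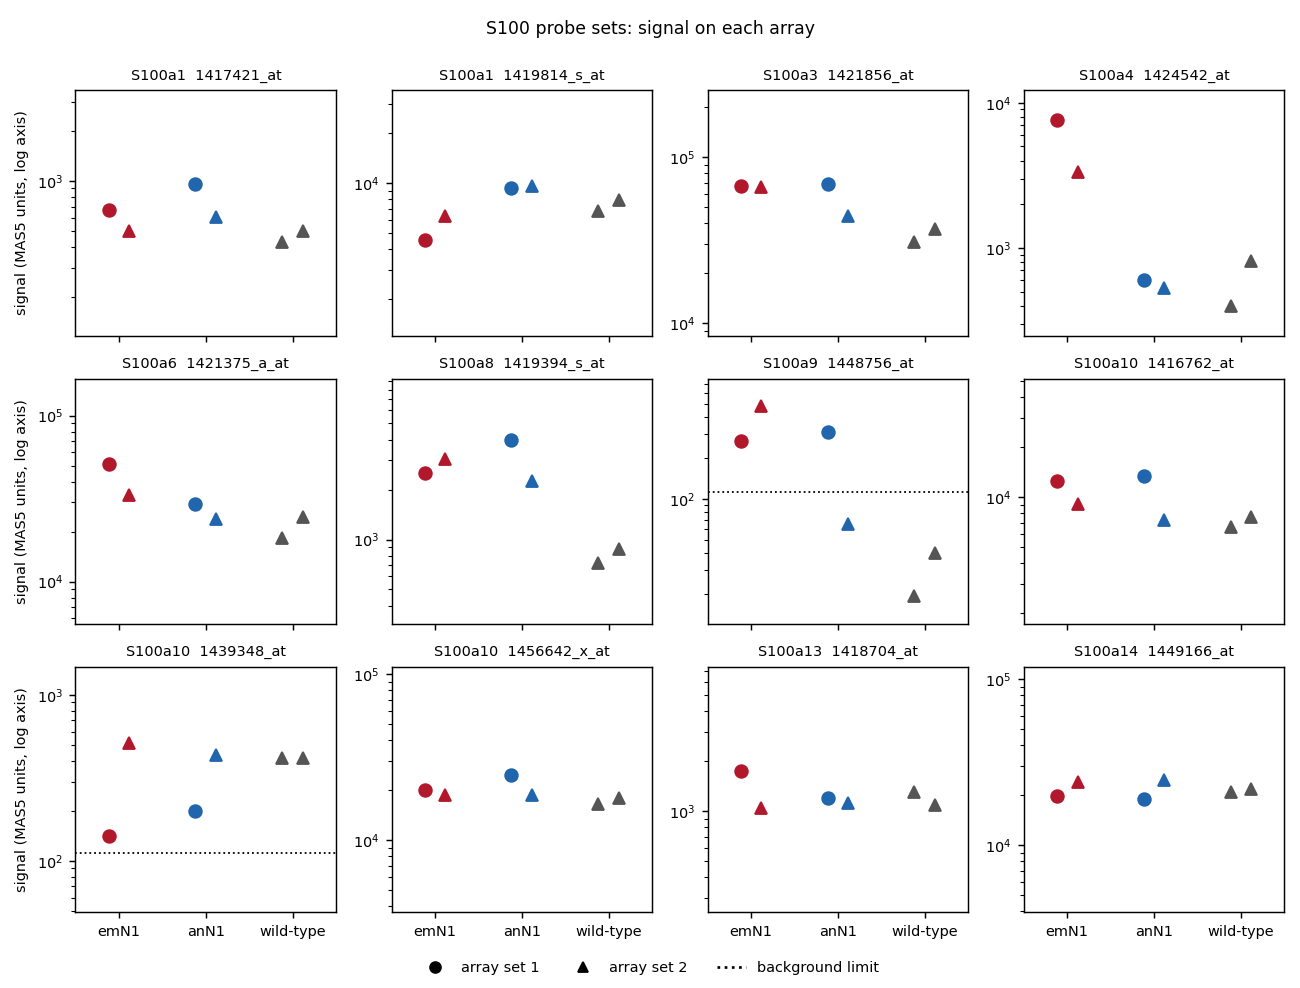
Signal (log axis, in the arrays' units) of each S100 probe set in the emN1, anN1 and wild-type arrays, 1 point per array. S100a4 is the probe set in which both emN1 arrays, at 7615 and 3313 units, stand several-fold above all 4 controls, which lie between 398 and 816, whereas the emN1 and control arrays of S100a14 overlap.

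S100a4, also called metastasin or FSP1, binds non-muscle myosin and is widely used as a marker of fibroblasts and of cells in mesenchymal transition. Its probe set 1424542_at gave 7615 and 3313 units in emN1, against 602 and 530 in anN1 and 398 and 816 in wild-type arrays. Both emN1 arrays lay above all 4 controls, and anN1 and wild-type overlapped. The second emN1 array was at 0.435 of the first. On the log2 scale S100a4 was 2.97 higher in emN1 than in controls (SE 0.33, 2 against 4 arrays, limma Benjamini-Hochberg adjusted p = 0.00368), a fitted 7.83-fold difference with a 95% interval of 2.21 to 3.73 on the log2 scale. By size it stood at position 54 among the 27022 tested probe sets.

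The rise of S100a4 was present against each control alone and within each array set. Against anN1 the log2 difference was 3.11 (SE 0.38, limma adjusted p = 0.0128), and it was 3.62 in the first set and 2.60 in the second. Against wild-type it was 2.75 (SE 0.43, limma adjusted p = 0.0242), and 2.50 within the second set, the only set with wild-type arrays. Between anN1 and wild-type S100a4 differed by -0.36 (SE 0.43, limma adjusted p = 0.999). The size of the rise over controls stayed between 2.53 and 3.62 under all alternatives, but the call did not always hold. The limma adjusted p was 0.0669 with emN1 replicate 1 left out, 0.0990 with emN1 replicate 2 left out and 0.0562 with anN1 replicate 1 left out, and 0.0616 in limma with no intensity trend, within a range of 0.000457 to 0.0990 over the alternatives. Against anN1 it was 0.238 to 0.444 without any 1 of the emN1 or anN1 arrays, and against wild-type 0.182 to 0.410 without any 1 of them.

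S100a6, or calcyclin, is found in proliferating epithelial cells and fibroblasts and binds annexins and the calcyclin-binding protein. Its probe set 1421375_a_at gave 50876 and 33074 units in emN1, against 29356 and 23765 in anN1 and 18247 and 24418 in wild-type arrays. Both emN1 arrays were above every control, although the lower emN1 array was only a little above the highest anN1 array. The log2 difference from controls was 0.67 (SE 0.13, limma Benjamini-Hochberg adjusted p = 0.0305), a fitted 1.59-fold rise.

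Against anN1 alone S100a6 differed by 0.63 (limma adjusted p = 0.112), and by 0.79 and 0.48 in the first and second array sets. Against wild-type alone the difference was 0.73 (limma adjusted p = 0.102), so S100a6 passed only with the controls pooled. That call was lost without emN1 replicate 1 (limma adjusted p = 0.251), emN1 replicate 2 (0.202) or anN1 replicate 1 (0.249), within a range of 0.0124 to 0.251 over the alternatives. It was also lost with arrays divided by their median (0.140) and without the array set term (0.213). With quantile normalization the difference from wild-type passed (limma adjusted p = 0.0391). Leaving out wild-type replicate 1 or 2 brought S100a6 past the threshold against anN1, and leaving out replicate 2 did so against wild-type. The difference from anN1 stayed 0.63, so only the estimate of the spread had changed there. In these fits more probe sets of the whole table passed as well. S100a4 and S100a6 were the 2 of 11 tested members with both emN1 arrays above all 4 controls, an order that 9.99% of all tested probe sets had.

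Fibroblast and leukocyte markers moved in the same comparison. Of 9 fibroblast markers 6 were higher in emN1 than in controls, among them Thy1, Lox and Col1a2, at log2 differences of 1.51, 1.41 and 1.40, and the list's summed signal was 117874 to 140964 units in emN1, against 76069 to 81565 in anN1 and 74089 to 95307 in wild-type arrays. Macrophage and other leukocyte markers were higher for 5 of 11 (Csf1r at 2.72, Ctss at 2.71 and Fcer1g at 2.59 among them), with sums of 7599 to 9365 units in emN1, 2185 to 2422 in anN1 and 2374 to 2413 in wild-type. Fcer1g gave 424 and 435 units in emN1, 21.6 and 120 in anN1, and 51.2 and 135 in wild-type arrays. Its controls were thus partly under background, and it was tested in 11 of the 16 alternatives. Both of these cell classes are known to express S100a4 and S100a6, and the part of these markers in the 2 rises was not tested. With no filter on dim probe sets the macrophage count was 2. Without the array set term the macrophage count was 2 and the fibroblast count 4. A block by replicate number in all 3 groups gave 2 and 1, and without the intensity trend both counts were 0. The fibroblast count was 0 without emN1 replicate 1 or 2 and 1 without anN1 replicate 1, and the macrophage count was 2 without emN1 replicate 1 or anN1 replicate 1, 0 without emN1 replicate 2 and 3 without anN1 replicate 2.

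The genes whose pattern was most like that of S100a4, by Pearson r over the 6 arrays among 2568 variable genes, were Slc38a4 (r = 0.998), Col7a1 (0.997) and Pmp22 (0.989). Those most like S100a6 were Fndc1 (0.999), Tmsb4x (0.990) and Avpi1 (0.990). Col7a1, which encodes the anchoring-fibril collagen of the skin, gave 1004 and 644 units in emN1, 284 and 231 in anN1, and 223 and 326 in wild-type arrays. Tmsb4x, which encodes an actin-binding peptide, gave 29804 and 18526 units in emN1, 13487 and 11349 in anN1, and 8388 and 10964 in wild-type arrays. In both genes, as in the members they resemble, emN1 replicate 1 was the brightest array.

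S100a8 and S100a9 encode the subunits of calprotectin, which neutrophils carry in quantity and keratinocytes make under stress. S100a8 (1419394_s_at) gave 2510 and 3062 units in emN1, 3989 and 2262 in anN1, and 724 and 875 in wild-type arrays. All 4 arrays of the deleted groups were above both wild-type arrays, and emN1 and anN1 overlapped. The emN1 mean of 2786 ± 391 and the anN1 mean of 3125 ± 1221 units stood against a wild-type mean of 799.8 ± 107 (SD, n = 2 each).

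**Figure D2:**
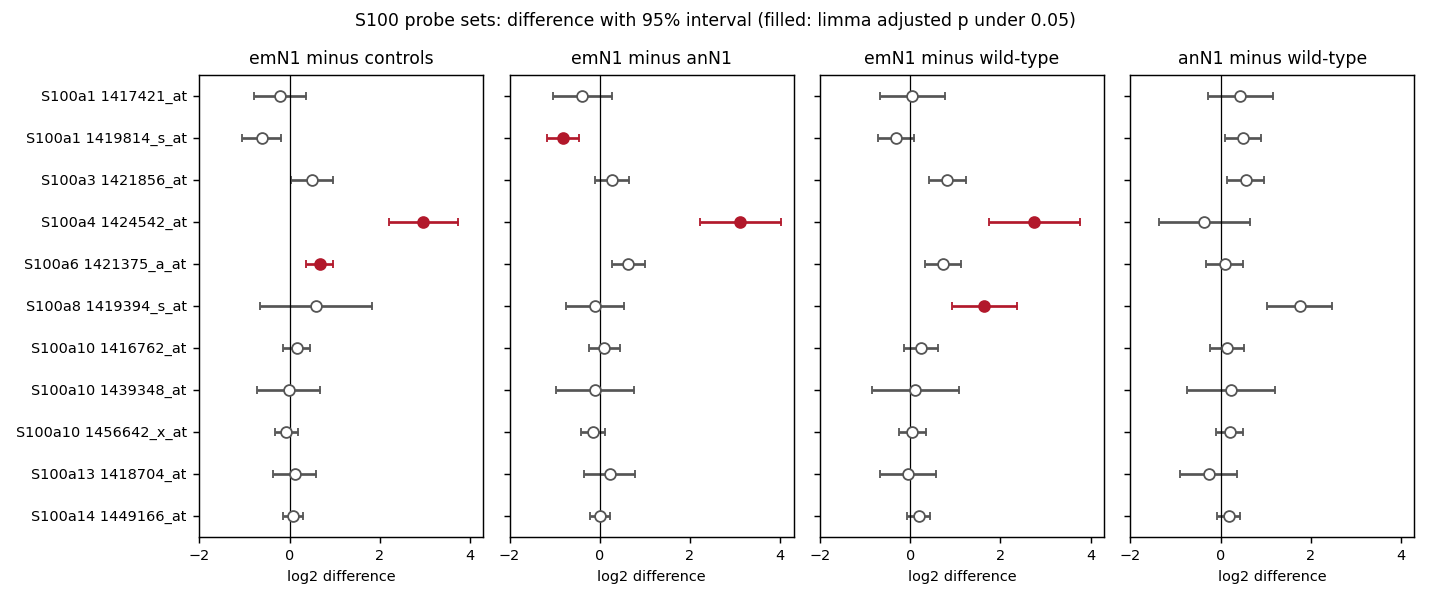
Log2 differences of the 11 tested S100 probe sets with their 95% limma intervals for emN1 minus controls, emN1 minus anN1, emN1 minus wild-type and anN1 minus wild-type, filled where the adjusted p is under 0.05. S100a4 lies far to the right in the 3 comparisons with emN1, whereas S100a8 lies to the right of 0 in both comparisons with wild-type, at 1.64 and 1.76.

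Against wild-type S100a8 was 1.64 higher in emN1 on the log2 scale (SE 0.31, limma Benjamini-Hochberg adjusted p = 0.0458), a fitted 3.13-fold difference. In this comparison 2 of the 11 probe sets rose, S100a4 and S100a8, and 0 fell, against 2.16% of all tested probe sets in either direction (1.53% higher, 0.629% lower). Between anN1 and wild-type the S100a8 difference was 1.76 (SE 0.31), but with a limma adjusted p of 0.289 (unadjusted p = 0.000619) it was not called. Between emN1 and anN1 it was -0.12 (SE 0.27, 95% interval -0.76 to 0.53), and -0.66 in the first and 0.43 in the second array set. Set against all 4 controls, of which the anN1 arrays were bright, the difference was 0.59 (SE 0.54, limma adjusted p = 0.668).

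The S100a8 call against wild-type depended on single arrays. The limma adjusted p was 0.106 with emN1 replicate 1 removed, 0.616 with emN1 replicate 2 removed, 0.102 with anN1 replicate 1 removed and 0.0969 with anN1 replicate 2 removed, in a range of 0.00290 to 0.616 over the alternatives. For anN1 against wild-type S100a8 passed with arrays divided by their median (limma adjusted p = 0.0331). There 46 probe sets of the whole table passed, against 20 with the deposited scaling. S100a8 also passed without wild-type replicate 1 or 2, and more probe sets of the whole table passed in those fits too.

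S100a9 (1448756_at) gave 268 and 480 units in emN1, 312 and 64.9 in anN1, and 19.2 and 40.2 in wild-type arrays. Both emN1 arrays and 1 of 2 anN1 arrays were above background and neither wild-type array was. With the background limit of 111.8 units in place of the wild-type signals, and means taken on the log2 scale, the emN1 mean of S100a9 was 3.21-fold that of wild-type. This ratio does not take the spread of the arrays into account. In a fit with no filter on dim probe sets the log2 difference was 2.72 from wild-type (SE 0.87, limma adjusted p = 0.301) and 1.80 from controls (SE 0.76, limma adjusted p = 0.373), so neither passed.

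Neutrophil markers were near background. Of the 9 with a probe set, 2 passed the filter on dim probe sets, 0 changed (median log2 difference from controls -0.76, from Ngp at 0.16 and Csf3r at -1.68), 1 was above background on every array and 1 was under it on every array. Their summed signal of 762 to 1180 units in emN1, 685 to 1353 in anN1 and 860 to 1042 in wild-type arrays overlapped between all groups. That median of 2 genes was 0.33 without emN1 replicate 1 and -2.38 without emN1 replicate 2. Single markers differed in order, and those named here were chosen after their values were seen. Camp, which encodes a peptide of neutrophil granules, gave 162 and 201 units in emN1, 246 and 174 in anN1, and 28.0 and 58.1 in wild-type arrays. Mmp9, a gelatinase, had the opposite order between anN1 and wild-type, with 10.03 and 207 units in emN1, 19.8 and 16.3 in anN1, and 165 and 154 in wild-type arrays. Ngp, another granule gene, was lower in both anN1 arrays than in both wild-type arrays as well. The stressed keratinocyte markers had sums of 95977 to 111026 units in emN1, 60890 to 70831 in anN1 and 49267 to 49629 in wild-type arrays. Nearly all of each sum was Sprr1a, at 106563 and 89387 units in emN1, 69041 and 59509 in anN1, and 48833 and 48303 in wild-type arrays. Of 5 tested, 3 were higher in emN1 than in controls, Krt16 by 3.13, Krt6a by 2.16 and Sprr1a by 0.72 on the log2 scale, and 4 of 5 were higher than in wild-type. The count against controls was 0 without emN1 replicate 1 or 2 and 1 without anN1 replicate 1, and against wild-type it was 0 without emN1 replicate 2. The part of these markers in the S100a8 difference was not tested.

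S100a3 is the cuticle protein of the family, rich in cysteine and known as a substrate of the peptidylarginine deiminase PADI3. Its probe set 1421856_at gave 67639 and 66400 units in emN1, 69325 and 44428 in anN1, and 30804 and 36744 in wild-type arrays. All 4 arrays of the deleted groups were above both wild-type arrays, but anN1 replicate 1 was above both emN1 arrays. The difference from controls was 0.49 on the log2 scale (SE 0.20, limma adjusted p = 0.269). It was 0.83 from wild-type (SE 0.18, limma adjusted p = 0.0726) and 0.27 from anN1 (limma adjusted p = 0.539). Between emN1 and anN1 it was -0.036 in the first array set and 0.58 in the second. None of these differences passed, although the difference from wild-type passed with quantile normalization (limma adjusted p = 0.0441). It also passed without wild-type replicate 1 or 2, where more probe sets of the whole table passed as well.

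Padi3, the S100A3-modifying enzyme, rose in emN1. It gave 23283 and 28750 units in emN1, 12354 and 16718 in anN1, and 11485 and 9334 in wild-type arrays, and both emN1 arrays were above all 4 controls. The log2 difference was 1.11 (SE 0.21, limma Benjamini-Hochberg adjusted p = 0.0271), and the call was lost without emN1 replicate 1 (limma adjusted p = 0.160) or its replicate 2 (0.338), and also without the first anN1 (0.157) or first wild-type array (0.0608). Of 3 tested cuticle markers 0 changed against controls (median 1.28), and their sums were 88343 to 91719 units in emN1, 68703 to 98316 in anN1 and 67546 to 77639 in wild-type. Against wild-type 2 of these 3 were higher, Krt32 by 2.56 and Krt82 by 1.78, a comparison in which no probe set of the table was called without emN1 replicate 2. The other one, Krt35, had 40609 and 45247 units in emN1 and 46226 to 72332 in controls, and differed by -0.67 from wild-type and -0.53 from controls, neither of which passed. Cortex keratins were higher for 4 of 8 against controls, with Krt86 at 6.26, Krt34 at 5.87 and Krt33b at 4.95, and their sums were 231847 to 262170 units in emN1, 95835 to 127371 in anN1 and 21157 to 21249 in wild-type arrays. Wild-type signals of these named keratins lay around the background limit. They were 103 and 32.7 units for Krt86, 48.2 and 165 for Krt34, and 60.4 and 197 for Krt33b, against 327 to 1653 in anN1. The cortex count was 1 without emN1 replicate 1, 0 without emN1 replicate 2 and 2 without anN1 replicate 1, and the cuticle count was 2 higher without wild-type replicate 2, and 2 higher and 1 lower without anN1 replicate 2. The part of either list in the S100a3 and Padi3 values was not tested.

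S100a1, known from heart muscle as a regulator of calcium handling, had a bright and a dim probe set. The bright probe set 1419814_s_at gave 4538 and 6370 units in emN1, 9332 and 9672 in anN1, and 6856 and 7889 in wild-type arrays. Both emN1 arrays were below all controls, an order shared by 9.33% of tested probe sets, and both anN1 arrays were above both wild-type arrays. It was 0.82 lower in emN1 than in anN1 on the log2 scale (log2 difference -0.82, SE 0.15, limma Benjamini-Hochberg adjusted p = 0.0452). In this comparison 1 of the 11 probe sets rose (S100a4) and 1 fell, where 2.02% of all tested probe sets passed in either direction (1.35% higher, 0.662% lower). The fall was -1.04 in the first and -0.60 in the second array set.

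Against the controls together the bright S100a1 probe set differed by -0.62 (SE 0.19, limma adjusted p = 0.134), and against wild-type by -0.32 (SE 0.17, limma adjusted p = 0.504). The call against anN1 was lost without any 1 of the emN1 or anN1 arrays (adjusted p = 0.245 to 0.577) and without the array set term (0.292), in a range of 0.00331 to 0.577. The dim probe set 1417421_at gave 668 and 499 units in emN1, 963 and 602 in anN1, and 426 and 497 in wild-type arrays, and emN1 overlapped with the controls. It differed by -0.39 from anN1 (SE 0.28, limma adjusted p = 0.634) and by -0.21 from controls (limma adjusted p = 0.761). In these comparisons the 2 probe sets had the same sign, and only the bright one passed, against anN1. Against wild-type their signs were opposite, with the dim one at 0.05 (limma adjusted p = 0.969). Its emN1 arrays lay above both wild-type arrays, the lower one only just, whereas those of the bright probe set lay below both.

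S100a10, or p11, forms a complex with annexin A2 at the membrane and, unlike most of the family, does not depend on calcium. Its probe set 1416762_at gave 12489 and 9101 units in emN1, 13477 and 7340 in anN1, and 6663 and 7618 in wild-type arrays. The probe set 1456642_x_at gave 20043 and 18605 units in emN1, 24664 and 18708 in anN1, and 16391 and 17826 in wild-type arrays. In each of these probe sets emN1 overlapped with the controls and anN1 replicate 1 was the brightest array. The dim probe set 1439348_at gave 140 and 513 units in emN1, 201 and 433 in anN1, and 415 and 417 in wild-type arrays, with the arrays of the first set lowest. Differences from controls were 0.16 (95% interval -0.13 to 0.45), -0.07 (-0.33 to 0.18) and -0.02 (-0.72 to 0.68) on the log2 scale, none of which passed.

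Annexin A2 itself was higher by its bright probe set. Anxa2 gave 20343 and 19593 units in emN1, 12390 and 14457 in anN1, and 13108 and 13328 in wild-type arrays. Both emN1 arrays were above all controls, at a log2 difference of 0.60 (SE 0.10, limma Benjamini-Hochberg adjusted p = 0.0138), but its other kept probe set differed by 0.06 (limma adjusted p = 0.943). Anxa5, a calcium-dependent phospholipid binder, was 0.70 higher (SE 0.10, limma adjusted p = 0.00999) and Anxa1, a partner of S100A11 and a substrate of keratinocyte transglutaminase, 0.44 higher (SE 0.07, limma adjusted p = 0.0174). Of the 9 tested genes of the list of annexins and other intracellular partners, 4 rose and 0 fell, with a median of 0.44 against -0.01 over all tested probe sets. Ahnak, a scaffold bound by S100A10 and annexin A2, differed by -0.07, the S100A6 partner Cacybp by -0.19 and the S100A4 partner Myh9 by 0.10, and none of these passed. Each value is that of the gene's brightest kept probe set, of 4 for Ahnak, 1 for Cacybp and 5 for Myh9. None of the 9 genes was called without emN1 replicate 1, emN1 replicate 2 or anN1 replicate 1, without the array set term or without the intensity trend, and 1 was called with arrays divided by their median.

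**Figure D3:**
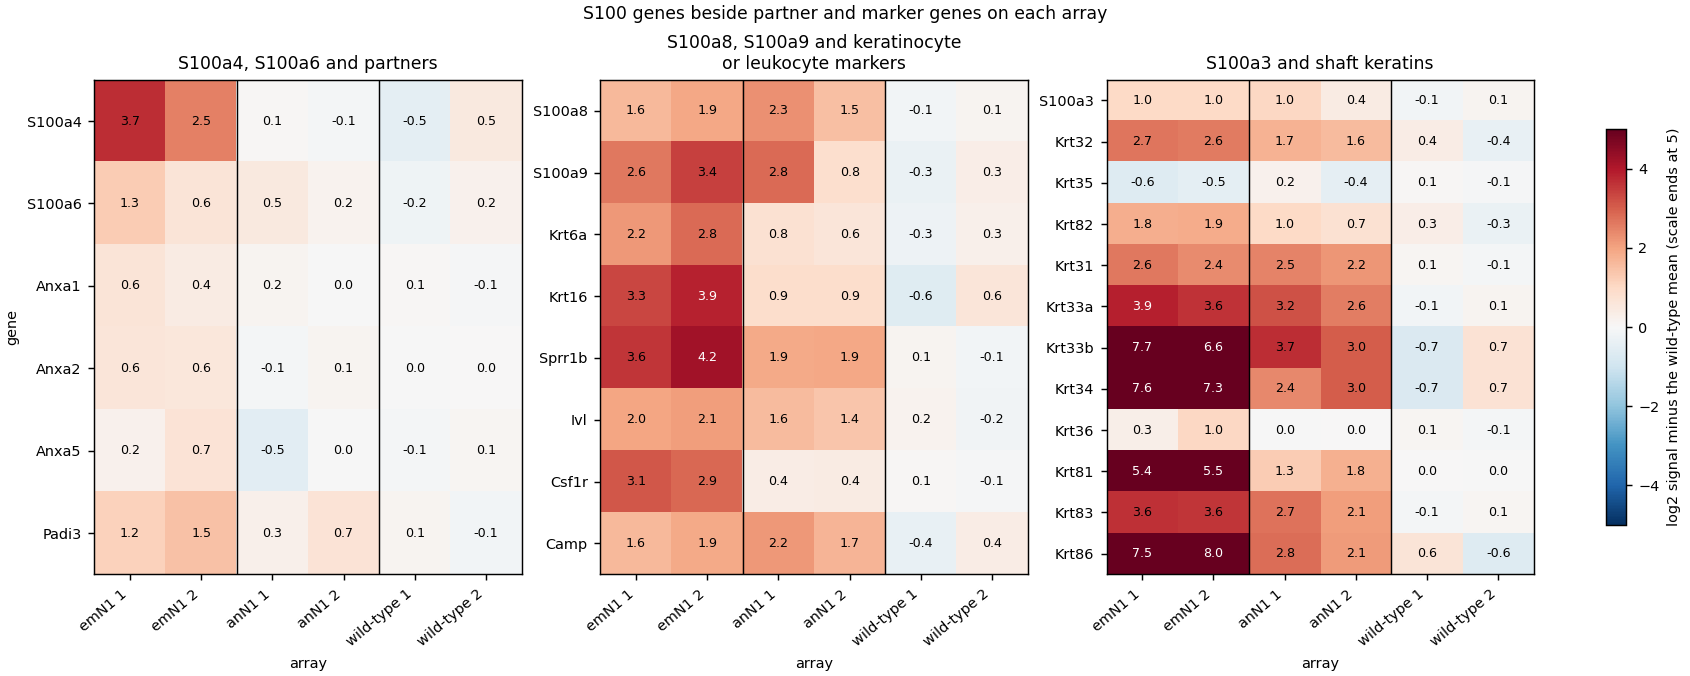
Log2 signal minus the wild-type mean, as colour and number, for members beside selected partner and marker genes (rows) on the 2 emN1, 2 anN1 and 2 wild-type arrays (columns). Camp is the only neutrophil marker drawn. Mmp9 and Ngp, which were lower in both anN1 arrays than in both wild-type arrays, are not drawn. S100a4 is raised in the emN1 columns alone, whereas S100a8 and S100a3 are raised in the emN1 and anN1 columns, as are most cortex keratins.

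S100a13, a carrier in the non-classical release of FGF1, and S100a14, an epithelial member that binds calcium poorly, passed in none of the 4 comparisons. S100a13 (1418704_at) gave 1753 and 1038 units in emN1, 1203 and 1115 in anN1, and 1310 and 1097 in wild-type arrays. S100a14 (1449166_at) gave 19785 and 24019 units in emN1, 19064 and 24641 in anN1, and 20982 and 21759 in wild-type arrays. In both genes the groups overlapped. The difference from controls was 0.11 for S100a13 (95% interval -0.37 to 0.60) and 0.08 for S100a14 (95% interval -0.14 to 0.30) on the log2 scale. Fgf1, the cargo of S100A13, differed by 0.90 (SE 0.43, limma adjusted p = 0.345).

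Between anN1 and wild-type bulbs 0 of the 11 probe sets passed limma with Benjamini-Hochberg adjustment, and 0.0740% of all tested probe sets did (20 of 27022, 0.0518% higher and 0.0222% lower). At an unadjusted p under 0.05 there were 3, S100a8, S100a3 and the bright S100a1 probe set, at log2 differences of 1.76, 0.55 and 0.50. The share of all tested probe sets at this unadjusted limit was not counted here either. The anN1 arrays lay above both wild-type arrays for both S100a1 probe sets, S100a3, S100a8, S100a9 and 1 of the 3 S100a10 probe sets, and 16.5% of all tested probe sets had this order, with 16.2% in the opposite one. The emN1 arrays lay above both wild-type arrays for 7 of the 11 tested probe sets, against 19.7% of all tested, and below both for the bright S100a1 probe set, against 22.6%. Of the members, S100a4 and S100a13 had differences below 0, at -0.36 and -0.26. Cortex keratins were called here, with 4 of 8 higher in anN1 than in wild-type (Krt33a by 2.66, Krt83 by 2.25, Krt31 by 2.21 and Krt81 by 1.70). These calls did not hold when any 1 emN1 or anN1 array was left out or without the intensity trend, where 0 probe sets of the whole table were called between anN1 and wild-type. No wild-type array was in the first set, so within the second set the S100a8 difference was 1.49 and the S100a3 difference 0.40.

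Other genes of the family and its surroundings gave few calls. Of the 6 other S100 genes 4 had a probe set and 2 were tested, and neither changed between emN1 and controls, S100a16 at 0.08 and S100b at -0.71 on the log2 scale. Fused-type genes carry an S100 domain joined to long repeats, and 3 of the 7 were tested. Tchhl1 fell by 1.78 (SE 0.40, limma Benjamini-Hochberg adjusted p = 0.0487), with 367 and 388 units in emN1, 2211 and 1570 in anN1, and 875 and 660 in wild-type arrays. Both emN1 arrays were below all controls, but the call was lost in 10 of the 16 alternatives, including removal of any 1 array other than wild-type replicate 2 (adjusted p = 0.0778 to 0.346). Tchh, the trichohyalin of the inner root sheath, differed by 0.11 and Rptn by 0.39, and neither passed. Of the receptors for extracellular S100 proteins 3 were tested and 0 passed, Cd36, a scavenger receptor, differing by 2.00 (limma adjusted p = 0.101) and Alcam, an adhesion molecule, by -0.11. The count of receptors was 1 without wild-type replicate 2 and with signals raised to the background limit.

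The remaining cell type lists were unlike one another in emN1 against controls. Melanocyte and Schwann cell markers were lower for 6 of 7, Sox10 by -2.27, Mlana by -1.81 and Tyr by -1.57 on the log2 scale, with sums of 93171 to 111431 units in emN1, 255099 to 299053 in anN1 and 206263 to 223430 in wild-type arrays. Interfollicular suprabasal keratinocyte markers were higher for 2 of 6 (Calm4 by 3.25 and Sbsn by 0.85), whereas Lor, at 891 and 561 units in emN1 and 903 to 1954 in controls, differed by -1.15 (limma adjusted p = 0.0501) and by -1.54 from wild-type (limma adjusted p = 0.0289). With quantile normalization, arrays divided by their median, a pseudocount of 100, a filter at the upper 40% or signals raised to the background limit, 1 gene of this list was called lower against controls. The sums of these suprabasal markers were 89419 to 102471 units in emN1, 43824 to 45357 in anN1 and 35899 to 36929 in wild-type arrays. Most of each sum was Sbsn and Calm4, and Krt10 of the same list differed by -0.01 from controls. Inner root sheath markers were higher for 2 of 9 (Krt26 by 2.97 and Krt72 by 1.08), and endothelium and muscle markers for 2 of 3 (Tagln by 1.69 and Acta2 by 0.95). Both of these are muscle genes of that list, and Kdr, its only tested endothelial gene, did not pass (0.43, SE 0.92, limma adjusted p = 0.882). Of 7 dermal papilla markers 1 was higher (Vcan by 0.77) and 1 lower (Rspo3 by -1.30), and Vcan was not called when any 1 array was left out. Without emN1 replicate 2 no gene of these 5 lists was called. Without emN1 replicate 1 or anN1 replicate 1 the counts were 5 for melanocyte and Schwann cell and 2 for endothelium and muscle markers, and 0 for the other lists.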

How the data were processed

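Total RNA of mouse hair follicle bulbs was measured on 6 one-colour arrays, grouped by sample title into emN1, anN1 and wild-type (2 each). The deposited values are 1 linear intensity per probe set. The submitters' processing notes name MAS5, and its version and settings are not stated. Detection calls were not used. Symbols came from the platform annotation, and probe sets with more than 1 symbol named no gene. Intensities were turned into log2(signal + 17.84), which adds the 10th percentile of the table and understates changes of dim probe sets. Of the 45037 probe sets other than controls, the 60% brightest by mean log2 signal were kept (27022).

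Comparisons were made in R 4.3.3 by limma 3.58.1 (lmFit and eBayes with trend), with two-sided p-values adjusted by Benjamini-Hochberg over all kept probe sets, a threshold of 0.05 and array set as a term. The emN1 arrays were set against 4 pooled controls (3 residual degrees of freedom) and, in a second model of 3 groups, against each control (2 residual degrees of freedom), with 5.30 prior degrees of freedom. The steps were tested on simulated data. With 2 arrays a group, the number of arrays limits the precision. The design text places emN1 and anN1 arrays of the same number in the same array set. Across 27022 probe sets, deviations from group means correlated at 0.38 between emN1 and anN1, -0.19 between emN1 and wild-type and -0.02 between anN1 and wild-type.

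The members and lists were chosen with earlier results of these data known. Named were all members; in each list of partners or relatives every gene past the threshold against controls, otherwise the 2 with the smallest unadjusted p; up to 3 called genes per marker list by size of change; and the 3 genes most like each member called against controls, by Pearson r over the arrays, among genes with an SD of at least 0.5. Further genes were chosen after their values were seen. Alternatives covered the pseudocount, the filter, the scaling, the background limit, the block, the trend and leaving out each array. Figures were drawn with matplotlib 3.10.9.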

Additional observations from a re-analysis of the deposited data

Results flagged for a closer look

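In the dim S100a10 probe set 1439348_at, 1 of the 4 control arrays stood apart. It was anN1 replicate 1, at 201 units, against 415 to 433 units in the other controls, a gap of 0.944 of the controls' whole range. The emN1 replicate of the same array set was low as well, at 140 units against 513 in emN1 replicate 2. Chance marks about 1 in 20 groups in this way.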

How the results depend on the processing

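Over the 44 differences of member probe sets (11 in each of 4 comparisons) and up to 16 alternatives, 605 of 700 values kept their direction and their side of the threshold, 40 lost a call, 10 gained one and 45 changed sign, none of which was called. The count of called members against controls (2) was 1 with arrays divided by their median and 0 without the intensity trend; against anN1 (2) it was 1 with no filter on dim probe sets or with arrays divided by their median and 0 without the trend; against wild-type (2) it was 1 with no filter, 4 with quantile normalization and 0 without the trend; and between anN1 and wild-type (0) it was 1 with arrays divided by their median. Leaving out 1 array gave 0 to 2 called members against controls, 0 to 3 against anN1, 0 to 4 against wild-type and 0 to 1 between anN1 and wild-type. Over the whole table the count against controls was 1020 probe sets, 0 without the trend (smallest adjusted p 0.0521), 1 without emN1 replicate 2, 159 without emN1 replicate 1 and 192 without anN1 replicate 1, so few members could be called there. The numbers pair emN1 and anN1 arrays by array set. With no replicate block the member counts were 1 against controls, 0 against anN1, 1 against wild-type and 0 between anN1 and wild-type, and a block by replicate number in all 3 groups gave the same counts. The call of S100a4 against controls held in both, and that of S100a6 did not (adjusted p = 0.213 and 0.215), nor did those of S100a4 against anN1 (0.0698 and 0.0718) and S100a8 against wild-type (0.0638 and 0.0662).

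Sign changes occurred in 20 results, all of them uncalled. With no block and with the block by number, differences were 0.011 for S100a10 1456642_x_at against controls, -0.58 for S100a10 1439348_at and 0.17 for S100a13 against wild-type, and -0.47 for S100a10 1439348_at between anN1 and wild-type. A pseudocount of 100 gave 0.011 for S100a10 1439348_at against controls. Quantile normalization gave -0.057 for S100a1 1417421_at against wild-type. Arrays divided by their median gave -0.033 for it and -0.037 for S100a10 1456642_x_at against wild-type, and -0.00387 for S100a6 between anN1 and wild-type. Leaving out 1 array gave, against controls, -0.036 to 0.85 for S100a3, -0.66 to 1.42 for S100a8, -0.11 to 0.34 for S100a10 1416762_at, -0.47 to 0.27 for 1439348_at, -0.30 to 0.079 for 1456642_x_at and -0.17 to 0.54 for S100a13. Against anN1 it gave -0.036 to 0.58 for S100a3, -0.66 to 0.43 for S100a8, -0.11 to 0.31 for S100a10 1416762_at, -0.47 to 0.24 for 1439348_at, -0.10 to 0.54 for S100a13 and -0.037 to 0.053 for S100a14. Against wild-type it gave -0.14 to 0.16 for S100a1 1417421_at, -0.067 to 0.35 for S100a10 1416762_at, -0.41 to 0.29 for 1439348_at, -0.17 to 0.12 for 1456642_x_at and -0.20 to 0.43 for S100a13. Between anN1 and wild-type it gave -1.12 to 0.14 for S100a4, -0.15 to 0.30 for S100a6 and 0.06 to 0.76 for S100a10 1439348_at. The cause of these changes was not tested.

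A planned background limit from bacterial controls that are added to samples was not run, because 4 of these 5 were bright on every array. A limit from undetected bacterial controls replaced it and was chosen after seeing the data; it changed no call of a member. Signal over background limits S100a9, which is under background on 3 of 6 arrays, and the dim probe set of S100a10.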
